A study of Mus musculus with 96 samples.

Results

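Cyp2e1 encodes a cytochrome P450 enzyme, and its messenger RNA was followed here in 8 tissues of DBA/2J mice on 2 diets. The members were all probes that the platform's probe table assigns to Cyp2e1 (Entrez gene 13106), 1 of 17711 named genes on the array, which were 2 of its 46632 probes, ILMN_1214390 and ILMN_2687014. They are called the first and the second probe, in the order of their mean signal over all arrays. DBA/2J is an inbred laboratory strain, and every animal was a 12-week-old mouse of that strain with no transgene or deletion named in the labels. The mice had been fed for 6 weeks on a standard breeding diet (labelled SBD) or a high-fat diet (labelled HFD), and animals of both groups went without food for 2 hours before they were dissected. Brown fat was taken with 5 white fat depots (gonadal, mesenteric, perirenal, inguinal and subcutaneous), liver and quadriceps muscle, each with 6 biological replicates per diet, so there were 16 groups and 96 arrays. The depots are named as the sample labels name them; the dissection notes use partly other names, among them gluteal and retroperitoneal, and how those map onto the labels was not settled. The gene was selected on its measured levels across these tissues and its difference between these diets, so its own levels and differences are given as a description without a test, and tests are given for other genes only.

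CYP2E1 sits in the membrane of the endoplasmic reticulum, takes electrons from P450 reductase and cytochrome b5, and oxidises ethanol, acetone and small organic molecules such as paracetamol and carbon tetrachloride. It also leaks reactive oxygen species during its cycle. In liver it is made mainly by the hepatocytes around the central vein, where beta-catenin signalling and the factor HNF1 alpha are known to sustain its gene. In rodent liver its mRNA is known to be lowered by insulin and its protein to be stabilised by substrates, so a change of mRNA and a change of enzyme are separate measurements. Only mRNA was measured here. Adipocytes are known to express the gene too.

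In the reference annotation (RefSeq, GRCm38.p6) the gene covers chr7:140763819-140774990. The 250 bases before its start, chr7:140763569-140763818 on the plus strand, are shown as the stretch next to the annotated start of the gene; which start is used in each tissue was not measured. Capitals mark the letters found in a search for TATAAA, for CCAAT and for the consensus of HNF1 with up to 3 mismatches, each on both strands.
Cyp2e1 promoter: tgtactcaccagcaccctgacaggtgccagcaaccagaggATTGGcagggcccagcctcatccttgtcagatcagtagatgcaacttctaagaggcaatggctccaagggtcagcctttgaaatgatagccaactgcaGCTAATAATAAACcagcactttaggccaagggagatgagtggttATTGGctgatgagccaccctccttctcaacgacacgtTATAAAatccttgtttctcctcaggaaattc
TATAAA lies 31 to 26 bases before the start, and 12.4% of 32851 mouse promoter windows in the same table hold it. CCAAT is found on the minus strand, read here as ATTGG, at 210 to 206 and at 68 to 64 bases before the start, and 33.8% of the promoters hold it. The single HNF1 match lies 112 to 100 bases before the start with 2 mismatches, and 7.58% of the promoters hold a match with up to 3. None of the capital stretches overlaps another. These matches describe letters, and no binding was measured. HNF1 alpha itself, like 12 other genes of the lists used below, was not matched to a probe and was not analysed here.

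Adipocyte, liver and muscle marker genes were high in the tissues that carry their names. The median intensity of Adipoq, which encodes the adipocyte hormone adiponectin, was 26150 to 56920 over the 12 fat groups, 157 to 171 in liver and 1372 to 1442 in muscle. Apoa1, a hepatocyte apolipoprotein, had medians of 40310 and 42650 in liver, and Acta1, skeletal muscle actin, of 46990 and 42380 in muscle. Brown and perirenal fat also held muscle RNA, with Acta1 medians of 44970 and 30100 on the standard diet. Summed over 9 muscle markers, perirenal fat had a median of 139400 on the standard and 44700 on the high-fat diet, with overlapping ranges. Brown fat had 139300 and 121400. The part of muscle RNA in the Cyp2e1 values was not tested. Some perirenal, mesenteric and gonadal arrays held hepatocyte RNA, and 11 of the 12 mesenteric arrays held much exocrine pancreas RNA, with values given below. The arrays differed in brightness, taken as upper-quartile over median intensity. In the 6 fat tissues high-fat replicates 3 to 6 were dim, at 1.34 to 1.72, against 1.7 to 2.49 on the standard diet and 1.96 to 2.68 for the other two high-fat arrays. Chip and hybridisation day are not labelled, so brightness was used as a covariate and the dim arrays were left out in turn. Quantile normalization left the median difference of all genes at -0.03 to 0.00 in each tissue. Under median scaling it moved to between -0.29 and -0.18 in the fat tissues, -0.09 in muscle and -0.02 in liver. The number of called genes went from 2717 to 100 in brown, 2190 to 93 in gonadal and 4245 to 322 in inguinal fat. It went from 118 to 2 in mesenteric, 4766 to 968 in perirenal and 3571 to 89 in subcutaneous fat. In liver it went from 205 to 10 and in muscle from 35 to 592. The share of these that were higher on the high-fat diet went from 45 to 33% in brown and 50.3 to 34.4% in gonadal fat. It went from 46.4 to 18% in inguinal, 50 to 40.6% in perirenal and 44.2 to 37.1% in subcutaneous fat. In mesenteric fat it went from 39 to 50%, in liver from 53.2 to 50% and in muscle from 48.6 to 1.69%.

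On the standard diet Cyp2e1 was one of the brightest probes in liver and in most white fat. In liver the first probe read 45943 at the lowest, 48498 at the median and 64017 at the highest of 6 arrays, in arbitrary units of non-normalized fluorescence, and ranked 2 to 41 among the 46632 probes of its array. Gonadal fat gave 43566, 45656 and 61823 (ranks 3 to 163), and perirenal fat gave 41174, 50053 and 57406 (ranks 9 to 92). These 3 tissues overlapped one another. Subcutaneous fat lay somewhat lower at 26331, 37116 and 50972, followed by mesenteric fat at 14579, 33455 and 47636 and inguinal fat at 15855, 22486 and 52680. The last 3 overlapped with each other and with gonadal and perirenal fat, and the highest inguinal array, replicate 4, was brighter than the median liver array. Brown fat held less, at 5267, 8746 and 16998, and its highest array overlapped with the lowest mesenteric and inguinal arrays. Muscle gave 861, 1388 and 2213, below every standard-diet array of the other 7 tissues.

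The second probe gave lower readings and nearly the same order. Its standard-diet medians were 37294 in liver, 29446 in perirenal, 28999 in gonadal, 13661 in subcutaneous, 12661 in mesenteric and 10751 in inguinal fat, 3585 in brown fat and 512 in muscle. Over all 96 arrays the log2 intensities of the probes correlated at r = 0.99, and within a single fat tissue or muscle at r = 0.96 to 0.99 over 12 arrays, while within liver r was 0.28. In liver the first probe stood at 69 to 97.9% of the brightest probe of its array on the standard diet and at 80.7 to 89.5% on the high-fat diet. The same share was 61.9 to 96.2% in gonadal and 65.5 to 90.2% in perirenal fat on the standard diet. The second probe stayed at 45 to 74.8% in liver. How far the readings near the top were held down by the scanner's range was not tested.

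**Figure D1:**
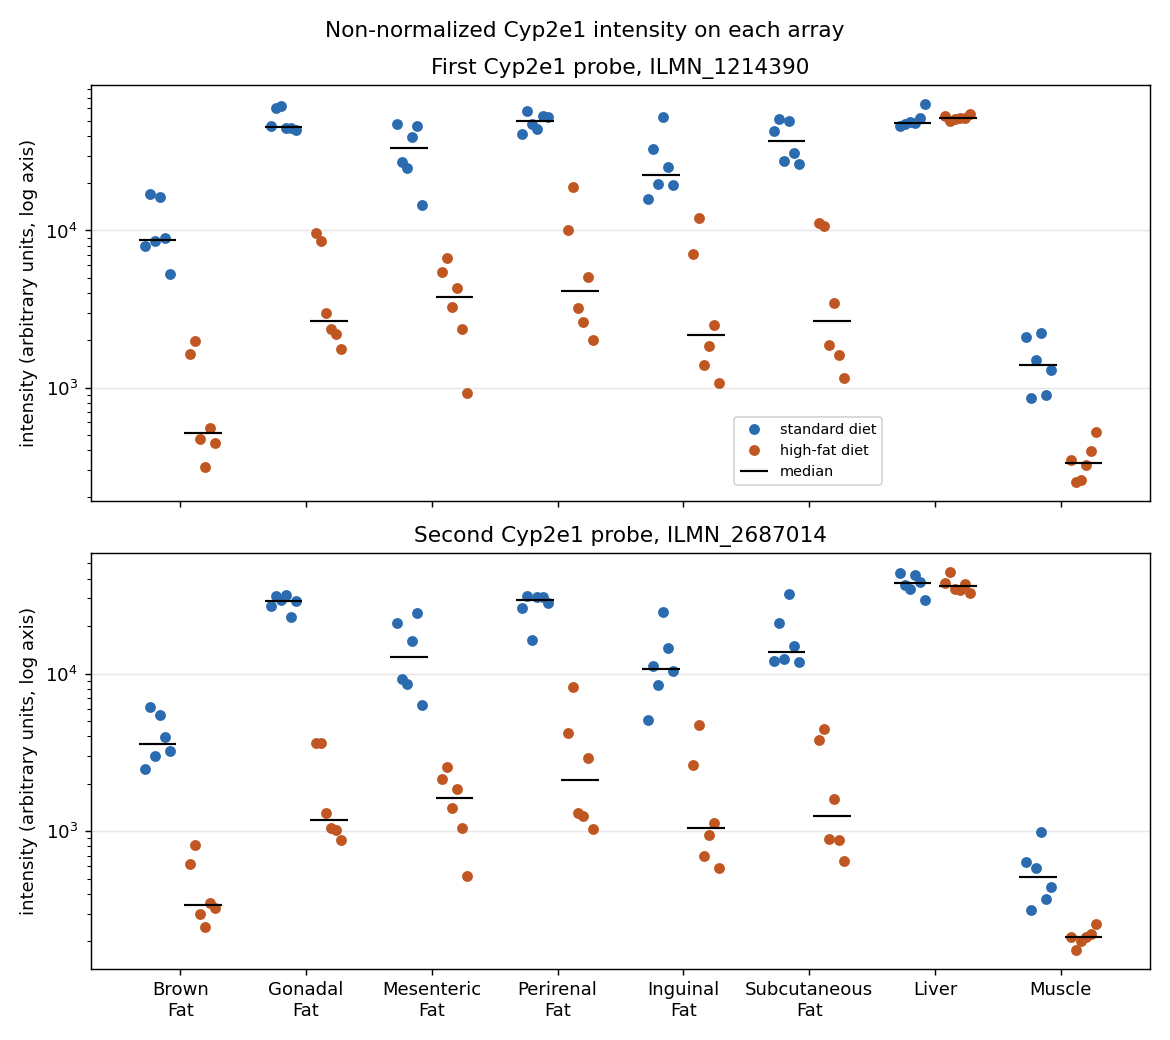
Non-normalized intensity of each Cyp2e1 probe (log axis, arbitrary units) on all 96 arrays, by tissue, with 6 points per diet and a line at the median. In the 6 fat tissues and in muscle every high-fat point (orange) lies below every standard-diet point (blue) in its tissue, and in liver the points overlap.

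In all 6 fat tissues Cyp2e1 was several-fold lower on the high-fat diet. Gonadal fat on the high-fat diet read 1768, 2663 and 9590 (lowest, median and highest), against 43566 for the lowest standard-diet array. Perirenal fat read 2004, 4142 and 18919, and subcutaneous fat 1146, 2662 and 11121. Each of these high-fat ranges ended below the standard-diet range of its tissue. Inguinal fat gave 1064, 2173 and 11935, mesenteric fat 929, 3781 and 6649, and brown fat 312, 514 and 1980. As a ratio the closest approach of raw readings was in inguinal fat, where the highest high-fat array at 11935 lay under the lowest standard-diet array at 15855. In rank, the first probe went from 392 to 1339 in standard-diet brown fat to 4437 to 7279 on the high-fat diet, and from 3 to 163 to 1491 to 2609 in gonadal fat.

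After background correction and quantile normalization within the tissue, the difference in mean log2 signal (high-fat minus standard diet, ± standard error of the fit, n = 6 arrays per diet) was largest in brown fat, at -3.43 ± 0.27, from 12.97 (SD 0.69) to 9.54 (SD 0.48), a 10.8-fold lower signal. In gonadal fat it was -3.33 ± 0.18, from 15.49 (SD 0.42) to 12.16 (SD 0.31), or 10.1-fold. Subcutaneous fat gave -3.14 ± 0.29 (8.8-fold) and perirenal fat -3.07 ± 0.25 (8.38-fold). The smaller differences were in mesenteric fat at -2.92 ± 0.27 (7.58-fold) and inguinal fat at -2.63 ± 0.30 (6.2-fold), and the standard errors of most neighbours in this order overlapped. With the second probe the values ran from -2.46 ± 0.24 in inguinal to -3.56 ± 0.12 in gonadal fat. Geometric means of the raw intensities gave larger ratios, 8.81-fold in inguinal to 13.7-fold in gonadal and still more in brown fat, and these also hold the lower brightness of the high-fat arrays.

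In each fat tissue all 6 high-fat arrays lay below all 6 standard-diet arrays with both probes. The share of all tested genes that did so was 3.27% in brown, 3.21% in gonadal, 4.63% in inguinal, 1.42% in mesenteric, 5.54% in perirenal and 4.1% in subcutaneous fat, and nothing is read from this, since the gene was chosen for the contrast. Ordered by the size of the fall among the 17955 to 18203 genes or unnamed probes tested in a fat tissue, Cyp2e1 stood at place 1 in 5 of the tissues and at place 2 in gonadal fat. The gap between the lowest standard-diet and the highest high-fat array was 1.41 to 2.37 log2 units over the 6 tissues.

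The 4 dim high-fat arrays had a lower mean of normalized Cyp2e1 than high-fat replicates 1 and 2 in 5 of the 6 fat tissues. It was 12.02 against 12.45 in gonadal fat, 9.28 against 10.07 in brown fat and 11.54 against 12.36 in inguinal fat. In perirenal fat it was 12.19 against 13.07 and in subcutaneous fat 11.64 against 12.56, whereas in mesenteric fat the values were 11.93 and 11.92. With brightness as a covariate the 6 differences ran from -3.20 in brown to -2.33 in inguinal fat. With the dim arrays left out, and thus 2 high-fat against 6 standard-diet arrays, they were -3.05 in gonadal, -2.93 in mesenteric, -2.90 in brown, -2.52 in subcutaneous, -2.48 in perirenal and -2.08 in inguinal fat.

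**Figure D2:**
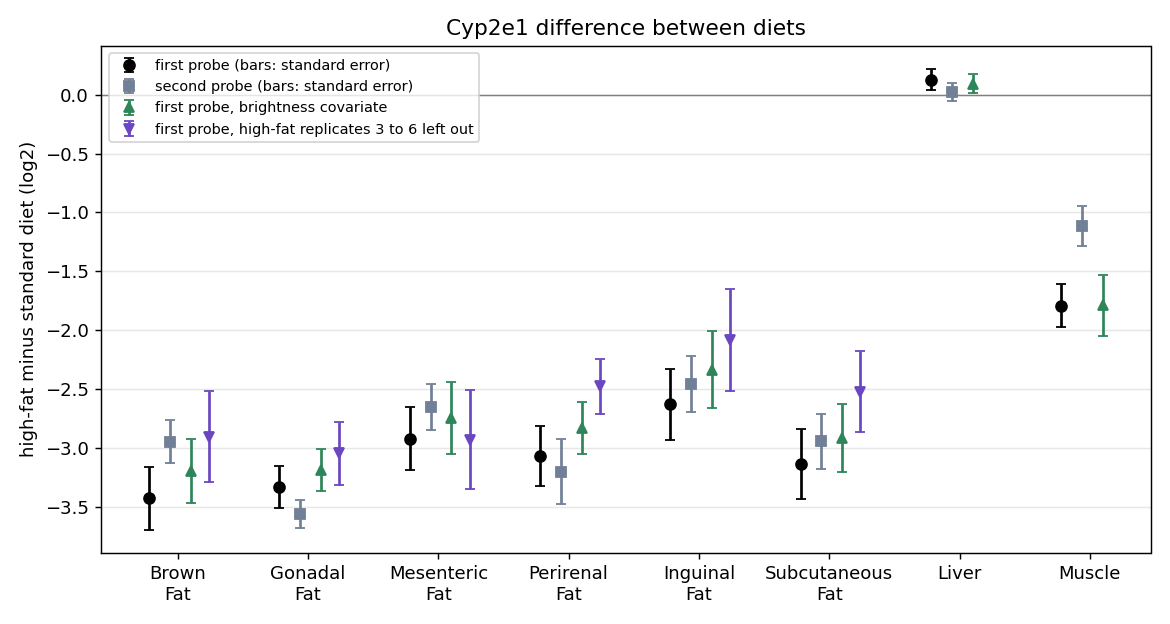
Difference in Cyp2e1 signal (log2, high-fat minus standard diet) by tissue for the first and the second probe, and for the first probe with array brightness as a covariate or, in the fat tissues, with high-fat replicates 3 to 6 left out. Bars are standard errors; all fat values lie between -3.56 and -2.08, liver lies near 0, and the muscle probes stand at -1.79 and -1.12.

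In bulk tissue fewer cells of a type and less RNA per cell cannot be told apart. Summed over 11 adipocyte markers, the intensities of the diets overlapped in every fat tissue, for example 272000 to 410500 on the standard and 215600 to 385000 on the high-fat diet in gonadal fat. Of all genes tested by limma, 15% passed in brown, 12.2% in gonadal, 23.6% in inguinal, 0.648% in mesenteric, 26.5% in perirenal and 19.9% in subcutaneous fat at an adjusted p of 0.05. Of the 11 adipocyte markers, 2 rose and 3 fell in brown fat (45.5%), 1 and 3 in gonadal (36.4%), 1 and 5 in perirenal (54.5%) and 2 and 1 in subcutaneous fat (27.3%), while 1 fell in inguinal and 1 rose in mesenteric fat (9.09% each). Lipe, hormone-sensitive lipase, fell by 0.89 ± 0.12 in inguinal fat (limma, Benjamini-Hochberg adjusted p = 0.000159) and by 0.82 ± 0.11 in perirenal fat (limma adjusted p = 0.000142), and Lep, the hormone leptin, rose by 1.92 ± 0.26 in brown fat (limma adjusted p = 0.000278).

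Markers of other cell types moved beside Cyp2e1. Of the macrophage markers tested, 5 of 7 rose in brown (71.4%), 5 of 8 in gonadal (62.5%), 6 of 8 in inguinal (75%), 1 of 8 in mesenteric (12.5%), 8 of 9 in perirenal (88.9%) and 4 of 8 in subcutaneous fat (50%), with 0 lower by limma. Trem2, a lipid receptor of macrophages, rose by 2.92 ± 0.22 in perirenal fat (limma adjusted p = 1.42e-06). The summed raw intensity of 10 macrophage markers did not follow the calls in every depot. Its median was 34580 on the standard and 56840 on the high-fat diet in perirenal fat and 5125 and 7293 in brown fat, but 36700 and 31020 in gonadal, 26250 and 17920 in inguinal, 17160 and 15780 in mesenteric and 27620 and 20460 in subcutaneous fat, and the ranges overlapped in each. Skeletal muscle markers fell in gonadal fat (4 of 6), mesothelial markers in perirenal (4 of 6) and gonadal fat (2 of 6) and lymphocyte markers in subcutaneous fat (5 of 6), and endothelial markers rose in brown and subcutaneous fat (3 of 5 each). Of the brown adipocyte markers tested, 1 of 10 rose and 1 fell in brown fat (20%), and 4 of 8 rose in inguinal fat (50%). In gonadal fat 1 rose and 2 fell of 7 (42.9%), and in perirenal fat 1 and 2 of 8 (37.5%). In mesenteric fat 1 of 7 rose (14.3%), and in subcutaneous fat 3 of 8 fell (37.5%). Acta1 was the 1 of 5 skeletal muscle markers that rose in subcutaneous fat, by 1.53. The shares of all genes are given above. Of the marker calls in these counts, those of Mrc1 in gonadal and of Cidec and Cpt1b in brown fat changed sign under median scaling. The part of these cell types in the Cyp2e1 values was not tested.

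Hepatocyte RNA in a fat sample could carry Cyp2e1 with it, so 11 hepatocyte markers were read on each array as their mean intensity over the array median. The ratio was 160 to 190 in standard-diet liver. In perirenal fat it ranged from 2.01 to 24.5 on the standard diet, with a median of 16.8, and from 1.05 to 27.8 on the high-fat diet, with a median of 3.32, so its median was lower on the same diet as that of Cyp2e1. The 8 hepatocyte markers tested there had a median difference of -0.94, with 0 called. The highest perirenal high-fat array, replicate 2 at 27.8, was also the highest for Cyp2e1, at 18919. In gonadal fat the ratio reached 24.56 on the standard and 1.836 on the high-fat diet, with medians of 1.145 and 1.263. In mesenteric fat it reached 14.27 and 10.59, with medians of 2.855 and 2.66. The mesenteric high-fat array at 10.59, replicate 5, had Cyp2e1 at 2355.7. The standard-diet array with the lowest ratio had Cyp2e1 at 8936 in brown fat (ratio 1.09), 46394 in gonadal (1.06), 52680 in inguinal (1.26), 47636 in mesenteric (1.04), 47637 in perirenal (2.01) and 42882 in subcutaneous fat (1.09). No hepatocyte marker passed limma's test between the diets in any tissue (0 of 5 to 10 tested), and the part of this RNA in the Cyp2e1 differences was not tested.

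Mesenteric fat held RNA of the exocrine pancreas. The same ratio over 8 pancreas markers had a median of 280.6 on the standard diet and 304.1 on the high-fat diet, and the median difference of the markers was 1.74, with 0 of 8 called. Standard-diet replicate 1 was almost free of it, at 2.13, and replicate 5 held less, at 133. They had the highest mesenteric Cyp2e1 readings without normalization, 47636 and 46574, on bright arrays (brightness 2.42 and 2.49). After normalization within the tissue replicate 1 was still highest, at 15.75. Replicate 5, at 14.76, then lay below replicate 4 (15.44, ratio 281) and replicate 2 (14.79, ratio 280). Replicate 6, with the highest standard-diet ratio of 306, had the lowest standard-diet reading, 14579, and the lowest normalized standard-diet value, 13.85. Without replicate 1 the Cyp2e1 difference in mesenteric fat was -2.74. High-fat replicate 4 had a ratio of 211, below 4 of the standard-diet arrays, with Cyp2e1 at 4299.7. The part of pancreas RNA in the mesenteric values was not tested.

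In liver the ranges of the diets overlapped. The first probe read 49421, 51946 and 55060 on the high-fat diet against 45943, 48498 and 64017 on the standard diet. The normalized difference was 0.13 ± 0.09 with the first probe, from 15.57 (SD 0.24) to 15.70 (SD 0.08), and 0.02 ± 0.08 with the second, from 15.14 (SD 0.16) to 15.16 (SD 0.11). Complete separation, with all 6 high-fat below all 6 standard-diet arrays, was not seen for Cyp2e1, and 0.604% of the 18225 genes tested in liver showed it. Cyp2e1 shares the pericentral zone of the liver lobule with several genes, and of 6 such genes tested 0 passed limma's test in liver, where 1.12% of all genes passed. Cyp1a2, another pericentral P450, stood at -0.34 ± 0.10 (limma adjusted p = 0.119), and Gulo, an enzyme of ascorbate synthesis, at 0.09 ± 0.09 (limma adjusted p = 0.84). Of 8 periportal genes 1 fell, the P450 gene Cyp2f2, by 0.35 ± 0.07 (limma adjusted p = 0.0232), from 14.58 to 14.23.

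Muscle held the least Cyp2e1 of the standard-diet tissues and also showed a lower signal on the high-fat diet. High-fat arrays read 252, 333 and 520 with the first probe against 861, 1388 and 2213, and 177, 212 and 258 with the second against 318, 512 and 988. The ranges did not overlap with either probe, which 0.319% of the 18184 genes tested in muscle showed in this direction. The normalized difference was -1.79 ± 0.18 with the first probe, from 10.21 (SD 0.52) to 8.42 (SD 0.33), a 3.46-fold lower signal. The second probe gave -1.12 ± 0.17 (2.17-fold), from 8.75 to 7.64, nearer to the background. By the size of the fall the first probe stood at place 2 of the genes tested in muscle.

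Muscle samples can hold fat between the fibres. Adipoq lay at 684 to 2349 on the standard-diet and 742 to 2461 on the high-fat muscle arrays, so the diets overlapped. Within the standard diet, replicates 4 and 1 had both the highest Adipoq (2349.5 and 1917.7) and the highest Cyp2e1 (2212.6 and 2088.4). The high-fat array with the highest Adipoq, replicate 5 at 2461.5, had Cyp2e1 at 392, and the standard-diet array with the lowest, replicate 6 at 684, had 1286.5. By limma 1 of 11 adipocyte markers rose, Lep, by 1.92 ± 0.21 (adjusted p = 0.000261), and 0 fell. Adipoq stood at 0.33 ± 0.24 (limma adjusted p = 0.738) and Fabp4, the adipocyte fatty acid carrier, at -0.01 ± 0.06 (limma adjusted p = 0.985). The sum of the 11 markers is not used in muscle, since Car3, Pnpla2 and Plin4, which muscle also expresses, had medians of 16300, 9069 and 5442 there on the standard diet. Standard-diet replicate 4, the highest for Cyp2e1, also held hepatocyte RNA, with a ratio of 7 against 1.06 to 1.2 on the other 11 muscle arrays. Without it the Cyp2e1 difference in muscle was -1.71.

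**Figure D3:**
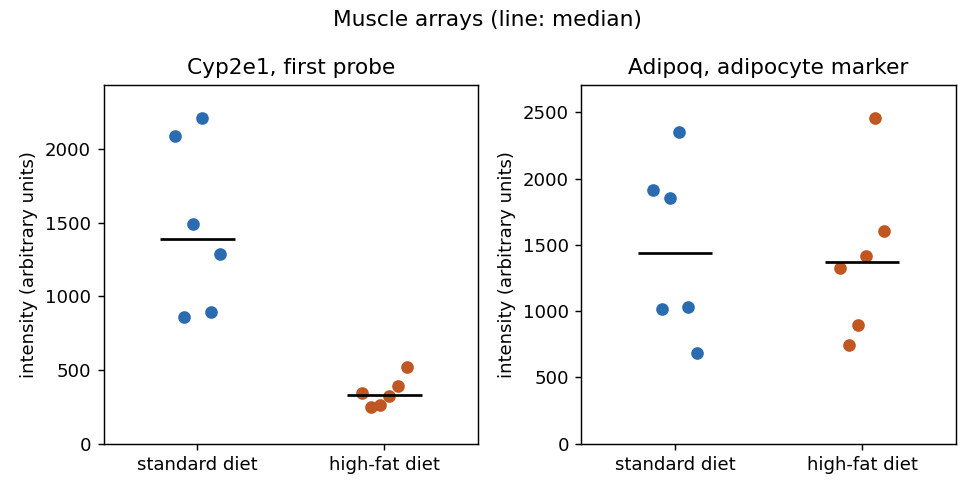
Intensity of the first Cyp2e1 probe (left) and of the adipocyte marker Adipoq (right) on the 12 muscle arrays, in arbitrary units, with a line at the median of each diet. The Cyp2e1 ranges of the diets (861 to 2213 and 252 to 520) are apart, and the Adipoq ranges (684 to 2349 and 742 to 2461) overlap.

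Placed on the scale of the deposited log2 values, which were normalized over all 96 arrays, the 16 group means of the first probe formed an almost continuous series. It began with liver on the high-fat diet (15.82) and on the standard diet (15.74), went on through perirenal (15.44), gonadal (15.33), mesenteric (14.89), subcutaneous (14.87), inguinal (14.06) and brown fat (12.89) on the standard diet, and then through mesenteric (12.20), perirenal (11.95), gonadal (11.52) and subcutaneous fat (11.45) on the high-fat diet. Standard-diet muscle (11.39) and high-fat inguinal fat (11.19) came next, and the lowest were muscle (9.74) and brown fat (9.68) on the high-fat diet. Neighbours overlapped at every step except between high-fat inguinal fat and high-fat muscle. With the second probe the steps without overlap were between standard-diet liver (15.45) and standard-diet perirenal fat (14.22) and between muscle on the standard diet (10.06) and on the high-fat diet (8.95). The 5 high-fat white fat means, 11.19 to 12.20, stood around that of standard-diet muscle.

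Among the fat tissues of standard-diet mice, the arrays of the same replicate number deviated from their tissue mean in the same direction. Replicate 4 was above the mean in 6 of the 6 fat tissues (mean deviation 0.60 log2 units, range 0.15 to 1.3), replicate 2 in 5 of 6 (0.40), and replicates 5 (-0.34) and 6 (-0.62) in 0 of 6. Replicates 1 and 3 were above it in 2 tissues each. The labels do not say whether a number stands for the same mouse in every tissue, nor on which of the dissection days a mouse was taken.

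The other genes of the Cyp2 family, which metabolise drugs, steroids and fatty acids, showed no difference of the size seen for Cyp2e1 in the fat tissues and muscle. Of 38 further Cyp2 genes with a probe, 12 to 17 passed the signal filter in a fat tissue, 26 in liver and 15 in muscle. By limma's test between the diets, at an adjusted p of 0.05, 0 of 13 passed in brown fat (15% of all genes), 2 of 13 in gonadal fat (12.2%), 4 of 12 in inguinal fat (23.6%), 0 of 15 in mesenteric fat (0.648%), 2 of 17 in perirenal fat (26.5%), 3 of 13 in subcutaneous fat (19.9%), 2 of 26 in liver (1.12%) and 0 of 15 in muscle (0.192%). The lowest difference among them in any tissue was -1.09, for Cyp2f2 in subcutaneous fat. The family medians lay between -0.23 and 0.02 over the 8 tissues, beside medians of all genes between -0.03 and 0.00. Whether these probes also read close relatives of their genes was not tested.

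Cyp2d22, the mouse gene taken as the counterpart of human CYP2D6, fell by 0.41 ± 0.11 in gonadal (limma adjusted p = 0.0269), 0.46 ± 0.10 in inguinal (limma adjusted p = 0.00405), 0.50 ± 0.10 in perirenal (limma adjusted p = 0.00339) and 0.44 ± 0.13 in subcutaneous fat (limma adjusted p = 0.0259). Cyp2s1 fell by 0.43 ± 0.11 in gonadal and 0.54 ± 0.12 in perirenal fat (limma adjusted p = 0.0175 and 0.00497). Cyp2f2 fell by 1.07 ± 0.26 in inguinal and 1.09 ± 0.20 in subcutaneous fat (limma adjusted p = 0.00879 and 0.0021). Cyp2c70, which hydroxylates bile acids in mouse liver, rose by 1.45 ± 0.11 in inguinal fat, from 8.40 to 9.85 (limma adjusted p = 7.67e-07), and by 0.96 ± 0.21 in subcutaneous fat (limma adjusted p = 0.00507). Cyp2u1, a fatty acid hydroxylase, rose by 0.37 ± 0.10 in inguinal fat (limma adjusted p = 0.013). In liver Cyp2b9 rose by 1.55 ± 0.36, from 6.49, near the background, to 8.05 (limma adjusted p = 0.0431). Hepatocyte ratios were 1.26 to 1.8 and 0.91 to 2.27 in inguinal fat and 1.09 to 7.04 and 1.23 to 4.86 in subcutaneous fat on the standard and the high-fat diet, and their part in the Cyp2f2 and Cyp2c70 values was not tested. With the dim arrays left out Cyp2c70 in inguinal fat was the 1 Cyp2 call left in the fat tissues.

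**Figure D4:**
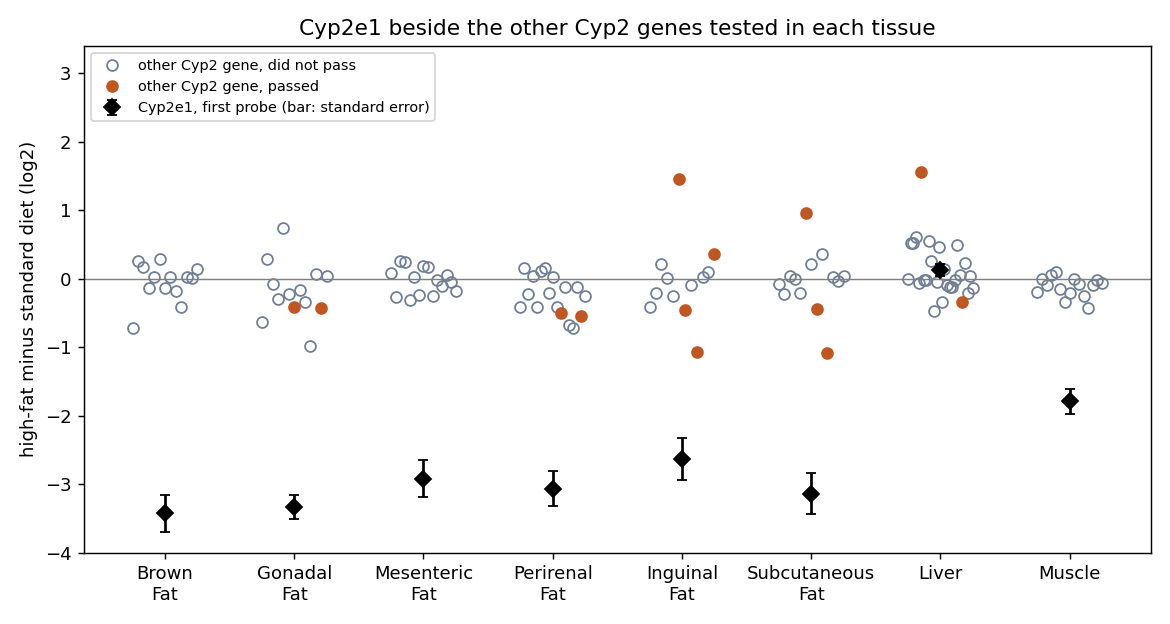
Difference between diets (log2, high-fat minus standard) for each Cyp2 gene tested in a tissue; filled orange circles passed limma's adjusted p of 0.05, open circles did not, and black diamonds are the first Cyp2e1 probe with its standard error, shown without a test. In the fat tissues and muscle the diamonds stand below all other Cyp2 genes, and in liver Cyp2e1 lies among them.

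Of 104 measured genes related to Cyp2e1 by family, electron supply, substrates, regulation, oxidant defence or liver zone, 13 of 59 tested passed in brown fat, 11 of 63 in gonadal, 24 of 58 in inguinal, 1 of 63 in mesenteric, 19 of 69 in perirenal and 18 of 63 in subcutaneous fat, 4 of 82 in liver and 0 of 59 in muscle. Among all genes, 8.27% were lower and 6.77% higher on the high-fat diet in brown fat, 6.05 and 6.12% in gonadal, 12.7 and 11% in inguinal, 0.396 and 0.253% in mesenteric, 13.3 and 13.3% in perirenal and 11.1 and 8.78% in subcutaneous fat, 0.527 and 0.598% in liver and 0.099 and 0.0935% in muscle. As shares the counts of related genes are 22%, 17.5%, 41.4%, 1.59%, 27.5%, 28.6%, 4.88% and 0%, beside the shares of all genes in either direction given above. With brightness as a covariate the counts in the fat tissues were 11, 8, 17, 0, 14 and 13. With the dim arrays left out, which also cuts the high-fat group to 2 arrays, they were 0, 0, 4, 0, 4 and 0 in the order given, and under median scaling of all arrays 0, 1, 3, 0, 6 and 0. The brightness covariate lost 27 of the 90 calls made over all tissues, of which only some are named here. Among them were Fech, Alas1 and Bdh1 in subcutaneous fat and Il1b and Adh1 in perirenal fat. In inguinal fat they included Hmox1, Cyb5b, Acat1, Aldh1a1, Il1b and Sod2, and in gonadal fat Cyp2d22, Adh1 and Sod2. The calls left without the dim arrays were Aldh1a7, Cyp2c70, Gpx3 and Irs1 in inguinal and Alad, Hmox1, Il1b and Irs1 in perirenal fat.

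Among the electron donors and haem synthesis genes, 11 were tested in each fat tissue and in liver and 10 in muscle. In brown, gonadal and perirenal fat 1 rose and 1 fell, in inguinal fat 2 and 2, in subcutaneous fat 3 rose, and 0 passed in mesenteric fat, liver or muscle. The share was 18.2% in brown, gonadal and perirenal fat, where 15, 12.2 and 26.5% of all genes passed. It was 36.4% in inguinal (23.6% of all genes) and 27.3% in subcutaneous fat (19.9%). Cytochrome b5, which hands electrons to CYP2E1, is encoded by Cyb5a, and this fell by 0.40 ± 0.08 in inguinal fat (limma adjusted p = 0.0034). Cyb5b, the form of the outer mitochondrial membrane, fell by 0.50 ± 0.09 in brown fat (limma adjusted p = 0.00269) and rose by 0.31 ± 0.10 in inguinal fat (limma adjusted p = 0.0411). Alad, the second enzyme of haem synthesis, fell by 0.28 ± 0.08 in gonadal, 0.32 ± 0.07 in inguinal and 0.42 ± 0.06 in perirenal fat (limma adjusted p = 0.0266, 0.00653 and 0.000276). In subcutaneous fat Fech, which inserts the iron, rose by 0.60 ± 0.17 and Alas1, the first enzyme, by 0.33 ± 0.11 (limma adjusted p = 0.023 and 0.038). Neither of these calls held with brightness as a covariate. Hmox1, the haem-degrading oxygenase, rose by 0.69 ± 0.20 in brown, 0.80 ± 0.12 in gonadal, 0.76 ± 0.26 in inguinal and 1.43 ± 0.18 in perirenal fat (limma adjusted p = 0.0351, 0.000753, 0.0434 and 7.76e-05). Perirenal fat was also the depot with the most macrophage markers called.

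Enzymes that act on the same substrates gave small and mixed differences. Of 6 to 8 alcohol and aldehyde oxidation genes tested in a fat tissue, 2 fell in brown and in gonadal fat, 1 rose and 2 fell in inguinal, 1 and 1 in perirenal, 1 rose in subcutaneous and 0 passed in mesenteric fat. The shares were 28.6% in brown (15% of all genes), 25% in gonadal (12.2%) and 50% in inguinal fat (23.6%). They were 28.6% in perirenal (26.5%) and 14.3% in subcutaneous fat (19.9%). Aldh2, the mitochondrial enzyme that clears acetaldehyde, fell by 0.46 ± 0.09 in brown, 0.45 ± 0.11 in gonadal and 0.51 ± 0.12 in inguinal fat (limma adjusted p = 0.00324, 0.0192 and 0.00698). Adh1, the main hepatic alcohol dehydrogenase, fell by 0.46 ± 0.12 in gonadal and 0.46 ± 0.15 in perirenal fat (limma adjusted p = 0.0281 and 0.035). In liver 1 of 10 passed, Aldh3a2, a fatty aldehyde dehydrogenase, which rose by 0.56 ± 0.11 (limma adjusted p = 0.0197), while Adh1 stood there at 0.08 ± 0.08 (limma adjusted p = 0.829). Ketone bodies give rise to acetone, a CYP2E1 substrate, and of 4 or 5 ketone genes tested per tissue 2 fell in subcutaneous fat, 1 rose and 1 fell in inguinal fat, and 1 rose in brown fat, perirenal fat and liver. The shares were 40% in subcutaneous (19.9% of all genes) and 50% in inguinal fat (23.6%). They were 20% in brown fat, perirenal fat and liver, where 15, 26.5 and 1.12% of all genes passed. Acat1, which joins or splits acetoacetyl-CoA, rose by 0.36 ± 0.07 in brown and 0.43 ± 0.12 in inguinal fat (limma adjusted p = 0.00424 and 0.0183; -0.10 and -0.02 under median scaling). Bdh1, hydroxybutyrate dehydrogenase, rose by 0.46 ± 0.10 in liver (limma adjusted p = 0.03) and fell by 0.29 ± 0.10 in subcutaneous fat (limma adjusted p = 0.043).

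Of the genes known from liver as regulators of Cyp2e1 or as insulin and cytokine signals to it, Irs1 fell in 6 of the 6 fat tissues. In each fat tissue 5 or 6 genes of this list were tested. The share called was 20% in brown (15% of all genes), 20% in gonadal (12.2%) and 50% in inguinal fat (23.6%). It was 16.7% in mesenteric (0.648%), 60% in perirenal (26.5%) and 33.3% in subcutaneous fat (19.9%). Irs1 encodes a docking protein of the insulin receptor. It fell by 1.40 ± 0.16 in perirenal fat (limma adjusted p = 3.37e-05), 1.27 ± 0.17 in inguinal (0.00018), 0.98 ± 0.15 in gonadal (0.00108), 0.92 ± 0.16 in subcutaneous (0.00124), 0.78 ± 0.14 in brown (0.00236) and 0.60 ± 0.10 in mesenteric fat (0.0161), where it was the 1 related gene called. It stood at -0.39 ± 0.11 in liver and -0.41 ± 0.24 in muscle (limma adjusted p = 0.124 and 0.647). The mesenteric call was lost with the brightness covariate (limma adjusted p = 0.0644), with the replicate block (limma adjusted p = 0.0862) and under median scaling (limma adjusted p = 0.344). With the dim arrays left out, and likewise under median scaling, its call held in inguinal and perirenal fat. Insr, the insulin receptor, fell by 0.44 ± 0.09 in inguinal fat (limma adjusted p = 0.0034). The cytokine gene Il1b rose by 0.56 ± 0.18 in inguinal and 1.22 ± 0.36 in perirenal fat (limma adjusted p = 0.0367 and 0.0239), and Ctnnb1, beta-catenin, by 0.38 ± 0.11 in perirenal and 0.54 ± 0.14 in subcutaneous fat (limma adjusted p = 0.0214 and 0.0138). In liver 0 of 6 passed, where 1.12% of all genes did. Ctnnb1 stood there at -0.05 ± 0.09 and Tcf7l2, its DNA-binding partner, at -0.02 ± 0.12 (limma adjusted p = 0.919 and 0.985).

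Oxidant defence genes gave 3 to 6 calls among the 11 tested in each fat tissue apart from mesenteric fat, where 0 of 10 passed, and 0 of 11 in liver and in muscle. The shares were 54.5% in brown (15% of all genes), 27.3% in gonadal (12.2%) and 45.5% in inguinal fat (23.6%). They were 54.5% in perirenal (26.5%) and 45.5% in subcutaneous fat (19.9%). Gpx3, the secreted glutathione peroxidase, fell by 2.09 ± 0.21 in inguinal fat (limma adjusted p = 1.19e-05), by 1.06 in gonadal and in subcutaneous fat (each ± 0.15; limma adjusted p = 0.000539 and 0.000292), by 0.74 ± 0.14 in perirenal fat (limma adjusted p = 0.00221) and by 0.68 ± 0.16 in brown fat (limma adjusted p = 0.0122). Sod1, the cytosolic superoxide dismutase, fell by 0.56 ± 0.13 in gonadal and 0.51 ± 0.11 in perirenal fat (limma adjusted p = 0.014 and 0.00476), and Sod2, the mitochondrial form, rose by 0.42 ± 0.11 in gonadal and 0.48 ± 0.12 in inguinal fat (limma adjusted p = 0.027 and 0.00995). With brightness as a covariate these 2 Sod2 calls were lost, while Sod2 was called in brown, perirenal and subcutaneous fat. Sod1 was then called in gonadal, perirenal and subcutaneous fat. Calls of Gclm, Gpx1 and Sod3 are not given here with their values. Nfe2l2, which encodes the oxidant-responsive factor NRF2, rose by 0.52 ± 0.12 and its target Srxn1 by 0.47 ± 0.12 in perirenal fat (limma adjusted p = 0.00651 and 0.0134).

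Genes whose signal followed that of Cyp2e1 were listed by Pearson's r, as a description without p-values. Over the 16 group means, with 13718 genes compared, the highest were Rpap2 (0.93), a phosphatase of RNA polymerase II, Pdcd6ip (0.91) and Olfr1312 (0.91), followed by Txlna, Zfp871, Mycl, Rd3 and Clmn (0.86). Over the 72 fat arrays, each gene taken relative to its tissue mean, they were Snhg11 (0.91), a host gene of small nucleolar RNAs, Slc43a1 (0.89), an amino acid transporter, Hcar1 (0.89), the lactate receptor of adipocytes, Irs1 (0.88), Cldn22 (0.88), Ces1f (0.87), Pth1r (0.87), the parathyroid hormone receptor, and Ptprd (0.87). The first set shares the tissue levels and the diet contrast with the choice of the gene, and the second set the diet contrast and the brightness of the arrays. Snhg11 differed between the diets by -0.79 ± 0.14 in mesenteric to -1.70 ± 0.12 in perirenal fat, and by -0.00 ± 0.09 in liver.

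Within the 36 standard-diet fat arrays, which hold no diet contrast, the highest correlations were with Il6st (0.78), the shared receptor subunit of interleukin 6 cytokines, C2 (0.73), a complement component, Slc25a30 (0.73), Gpx3 (0.72), Fkbp5 (0.72), a chaperone whose gene glucocorticoids induce, Dapk1 (0.71), Map3k6 (0.71) and Fam107a (0.70). The lowest were Yif1b, Eif6, Stk32c and Tbc1d23, each at -0.72. The median over 10529 genes was -0.01. Arrays of a number shared their direction for these genes also: Fkbp5 was above its tissue mean in 6 of 6 fat tissues for replicates 2 (mean deviation 1.05) and 4 (0.72) and below it in 6 of 6 for replicates 3 (-0.31), 5 (-0.67) and 6 (-0.64), so the 36 points are not independent of one another. Between the diets these 8 genes differed in unlike ways over the 6 fat tissues. Gpx3 stood at -2.09 ± 0.21 in inguinal to -0.32 ± 0.15 in mesenteric fat, C2 at -1.22 ± 0.14 in inguinal to -0.28 ± 0.14 in brown fat, Dapk1 at -0.64 to -0.25 and Fkbp5 at -0.62 ± 0.28 in inguinal to -0.20 ± 0.28 in brown fat. Il6st stood at -0.19 to 0.08, Slc25a30 at -0.15 to 0.20, Fam107a at -0.32 to 0.34 and Map3k6 at -0.31 to 0.48.

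**Figure D5:**
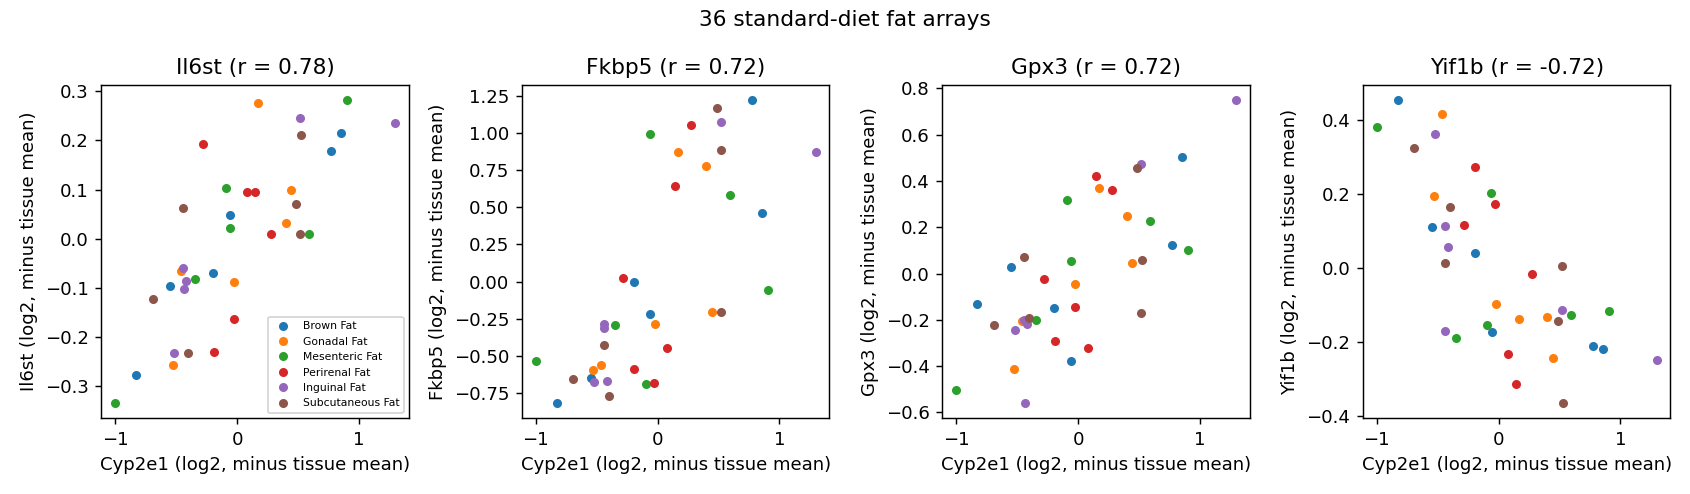
Cyp2e1 (x axis) against Il6st, Fkbp5, Gpx3 and Yif1b (y axes) on the 36 standard-diet fat arrays, in log2 units relative to the mean of each tissue, coloured by tissue. Il6st, Fkbp5 and Gpx3 run upward with Cyp2e1 (r = 0.78, 0.72 and 0.72) and Yif1b downward (r = -0.72); of the genes with the highest r, Fkbp5 and Gpx3 were picked for the plot after their values were seen.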

How the data were processed

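Total RNA of 96 samples was hybridised as biotin-labelled cRNA to Illumina Mouse-6 BeadChips, per the labels' protocols. The authors deposited non-normalized intensity, from 11.76 to 71625.1 with array medians of 107.4 to 244.4, without detection p-values; which scanner software made them is not given in the sources used here. Deposited beside them by the authors, log2 values equalled a quantile normalization of the log2 intensities over all arrays to within 0.00191, with a median of 7.391 on each array. Precision is limited by the 6 arrays per group, and p-values measure only the spread between these samples.

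Intensities were background-corrected with limma 3.58.1 (R 4.3.3) by normexp with an offset of 50, which shrinks differences near background, then log2 transformed and quantile normalized over the 12 arrays of a tissue. Probes whose mean exceeded the median probe of the tissue were kept. Of 46632 probes 29976 had 1 symbol, 10 several and 16646 none; 29921 were updated by Entrez number to RefSeq symbols (GRCm38.p6). The brightest probe of each of 17711 genes was tested, with unnamed probes, by limma's two-sided moderated test of 6 against 6 arrays and Benjamini-Hochberg adjustment over all of them, called at 0.05. The test was checked on simulated data. Cyp2e1 has no p-value, since it was chosen for this contrast. Members and gene lists were chosen with earlier results of these data known. Genes named were taken from each list's called members with the smallest p, up to 4 a tissue, and the 8 most correlated (in standard-diet fat also the 4 least). Not every such member is given with its value. The alcohol and aldehyde gene that rose in inguinal fat is left out, as is 1 of the 3 electron and haem genes that rose in subcutaneous fat. Periportal and pericentral calls in fat are given for Cyp2f2 only. Of 6 periportal genes tested in inguinal fat, 1 rose and 3 fell (66.7%), beside 23.6% of all genes. The tests of tissue differences and the counts of list calls under other settings were added after seeing the data. The main test did not pair the diets by replicate number, since no tissue had all 6 same-numbered pairs of arrays correlated over 0.1 in their deviations (-0.40 to 0.60). In each tissue 2 to 4 of the 6 pairs were over 0.1, so this does not settle whether a number stands for anything shared between the diets. The labels do not say whether an animal gave several tissues, so tests between tissues treat their arrays as independent.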

Additional observations from a re-analysis of the deposited data

Results flagged for a closer look

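On non-normalized intensities 2 Cyp2e1 readings stood apart from the other 5 of their group by Dixon's criterion, among 32 sets of tissue, diet and probe, and chance flags about 1 in 20 such groups. The first probe read 64017 on standard-diet liver replicate 6, against 45943 to 51913 on the others. The second probe read 16214 on standard-diet perirenal replicate 3, against 26160 to 31074. On the normalized log2 values 0 of the 32 sets had such an array.

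Among the related genes called in opposite directions in a pair of tissues, the difference in diet effect itself was tested in 1 limma fit over all arrays, adjusted over all genes passing the filter in both tissues. The pairs were picked for opposite calls on these same arrays, which favours a pass, so the p-values are no separate evidence. The fit also treated arrays of one number in different tissues as independent. Aldh1a1, a retinal and aldehyde dehydrogenase, rose by 0.70 ± 0.18 in subcutaneous fat (limma adjusted p = 0.013) and fell by 0.54 ± 0.14 in inguinal fat (limma adjusted p = 0.0108), a difference of 1.25 ± 0.25 (adjusted p = 0.000451). Bdh2, a cytosolic dehydrogenase, rose by 0.64 ± 0.13 in perirenal fat (limma adjusted p = 0.00354) and fell by 0.48 ± 0.13 in inguinal fat (limma adjusted p = 0.0146), a difference of 1.12 ± 0.22 (adjusted p = 0.000235). Cyb5b differed by 0.81 ± 0.14 between inguinal and brown fat (limma adjusted p = 1.67e-05). For Bdh1, liver minus subcutaneous fat, the difference of 0.75 ± 0.27 did not pass (limma adjusted p = 0.0564). With the brightness covariate the inguinal calls of Aldh1a1 (limma adjusted p = 0.0587) and Cyb5b (limma adjusted p = 0.0843) were lost and the other calls of these 3 genes held. Without the dim high-fat arrays none of the calls of Aldh1a1, Bdh2 and Cyb5b held, with 2 high-fat arrays left. The differences between tissues themselves were not tested under these settings.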

How the results depend on the processing

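Cyp2e1 kept its sign in every fat tissue and in muscle under all settings tried. Its difference moved by more than 1 SD in gonadal fat with the deposited values (-3.80) and with unnormalized log2 intensities (-3.78), in perirenal fat without high-fat replicates 3 to 6 (-2.48) and in muscle with the second probe (-1.12). Leaving out 1 array gave -3.59 to -3.26 in brown, -3.44 to -3.24 in gonadal, -2.77 to -2.37 in inguinal, -3.12 to -2.74 in mesenteric, -3.28 to -2.89 in perirenal and -3.31 to -2.97 in subcutaneous fat, 0.04 to 0.18 in liver and -1.94 to -1.70 in muscle.

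Counts of related genes called were less stable. From 13, 11, 24, 1, 19, 18, 4 and 0 (brown, gonadal, inguinal, mesenteric, perirenal and subcutaneous fat, liver, muscle) they went to 0, 1, 3, 0, 6, 0, 0 and 2 under median scaling. A fold change of at least 1.5 left 3, 3, 8, 1, 7, 6, 1 and 0. Leaving out the dim high-fat arrays, which leaves 2 of the 6, gave 0, 0, 4, 0, 4 and 0 in fat. Mesenteric fat had 0 with the brightness covariate and 0 with the replicate block, liver 8 with the replicate block and 1 with the deposited values. The block changed no other count by over 1.5 times, and what arrays of one replicate number share between the diets is not labelled. Without 1 array the counts were 9 to 20, 6 to 15, 21 to 27, 1 to 2, 15 to 22, 10 to 21, 0 to 4 and 0 to 0. Counts moved by over 1.5 times without high-fat replicate 2 in brown fat (20), standard-diet replicate 2 (7) or high-fat replicate 3 (6), 4 (7) or 6 (7) in gonadal fat, standard-diet replicate 5 or high-fat replicate 1 in mesenteric fat (2 each), and high-fat replicate 3 (11), 4 (10), 5 (11) or 6 (11) in subcutaneous fat. In liver they did without standard-diet replicate 2 or 6 or high-fat replicate 2, 5 or 6 (2 each) or high-fat replicate 1 (0). Of 90 calls 83 held with the deposited values, 89 without background correction, 63 with the brightness covariate and 10 under median scaling, where Acat1 in brown (-0.10) and inguinal fat (-0.016) and Sod3 in brown fat (-0.032) changed sign. The causes were not tested. Of the 8 genes most like Cyp2e1, Spearman's rho kept 2 over group means, 4 over all fat arrays and 6 over standard-diet fat. Signals near the brightest probe of an array may limit what liver and standard-diet gonadal and perirenal fat can show, which was not tested.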
